A study of Oryza nivara and Oryza rufipogon with 42 samples.

Results

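Flowering panicles of a pair of wild rices, Oryza nivara and O. rufipogon, were compared by digital gene expression (DGE), a method that counts a short tag next to an NlaIII site of each polyadenylated transcript. The 12 DGE libraries of panicles at the flowering stage were taken, of 36 DGE libraries and 42 libraries in all, and they hold 6 plants of each species. Each library is a different plant, named here by the number in its title. O. nivara plants 25, 34 and 40 and O. rufipogon plants 43, 47 and 50 were collected in 2009, and O. nivara plants 52, 80 and 197 and O. rufipogon plants 95, 199 and 230 in 2010. All 12 were wild accessions raised from seed in pots in a greenhouse, with no treatment and with no allele or transgene named, and 4 of the 6 plants of each species trace to India. The other origins were Thailand and Nepal for O. nivara and Myanmar and Thailand for O. rufipogon, and the age of the plants is not stated. The design asks how gene expression differs between these ecologically divergent species, with collection in a second year as a repeat.

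O. nivara is an annual that sets much of its seed by selfing, and O. rufipogon is a perennial that outcrosses more; the latter is held to be the wild ancestor of Asian cultivated rice. A panicle at flowering holds spikelets whose anthers are completing or shedding pollen. The tapetum, the innermost anther layer, feeds the developing pollen and lays down its wall before it breaks down, and gibberellin made in the anther is needed for that programme. Lemma, palea and rachis meanwhile strengthen their cell walls with cellulose and lignin, and after fertilisation the ovary turns to starch synthesis. Symbols below were assigned to locus identifiers from general knowledge of rice genes, because the files hold locus identifiers alone; each locus is printed where its symbol is first described.

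Library totals ran from 2021814 to 2371907 tags in 2009 and from 2677440 to 4094708 in 2010. On the log2 CPM (tag counts scaled to a fixed library size of 1000000) of the 12 libraries, the first principal component held 26.9% of the variance and collection year accounted for 88.0% of its scores; the second held 19.9%, and species accounted for 53.1% of its scores. Floral homeotic transcripts were found in every library, though their levels are not set beside those of leaves here. The summed level of the 20 floral organ identity genes counted lay between 1734 and 3030 CPM. OsMADS1 (LOC_Os03g11614), a spikelet meristem gene, averaged 306 CPM in O. nivara and 337 CPM in O. rufipogon. Transcripts of the late pollen list, which also holds anther sugar genes, were spread more widely. The summed level of its 9 genes ran from 55.0 CPM in O. nivara plant 34 to 1104 CPM in O. nivara plant 25, and O. rufipogon plants spanned 414 to 1060 CPM. In whole panicles, fewer cells of a type and less RNA per cell cannot be told apart.

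With collection year as an additive term, 164 of 17395 genes tested (0.943%) differed between the species at an adjusted p under 0.05 in edgeR's quasi-likelihood test, and such genes are said below to be called. O. nivara was higher for 58 of them (0.333% of the genes tested) and lower for 106 (0.609%). The smallest called difference was 1.33 on the log2 scale for higher genes and -1.24 for lower genes, and the medians were 2.07 and -2.43. All 6 plants of one species lay wholly outside the range of the other for 24 of the 58 higher and 54 of the 106 lower genes; over all genes tested this held for 81 in the higher direction (0.466%) and 146 in the lower (0.839%). The count turned on single plants. Without O. nivara plant 197, 25, 40, 34, 52 or 80 it was 68, 148, 584, 78, 69 or 53, and without O. rufipogon plant 95, 50, 43, 230, 47 or 199 it was 21, 31, 31, 876, 78 or 45. In 1 model of the 36 libraries it was 450 of 20018 (2.25%), and 125 of these were among the 164. It was 44 without the year term, and all 44 were among the 164. The plants of 2009 gave 13 calls, of which 1 was among the 164. Those of 2010 gave 9 calls, of which 2 were among the 164.

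Of the gibberellin genes, KO2 was called lower in O. nivara, and CPS1, which acts earlier in the pathway, separated the species while narrowly missing the threshold. Of 18 listed loci 16 were tested, of which none was called higher and 1 was called lower. The fit was lower for 9 and higher for 7, with a median of -0.41 against 0.01 over all genes. Over all genes tested, 8526 of 17395 were fitted lower, so the count of 9 lay near the general share. The committed step, conversion of geranylgeranyl diphosphate to copalyl diphosphate, is made by CPS1 (LOC_Os02g17780). Its level was 16.4 CPM at the lowest, 85.5 at the median and 145 at the highest in O. nivara, and 288, 378 and 537 CPM in O. rufipogon. The species did not overlap for CPS1, yet the fitted log2 difference of -2.26 ± 0.49 (SE) had an adjusted p of 0.0520 by edgeR. CPS1 was called in 2 of the 12 fits that each left out 1 plant and in 5 of 12 other alternatives, DESeq2 (adjusted p = 0.000296) and limma-trend (adjusted p = 0.0342) among them, with adjusted p up to 0.348 in plants from India alone.

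KO2 (LOC_Os06g37364), the ent-kaurene oxidase that acts after the synthases, was the called member. O. nivara plants held 14.1 CPM at the lowest, 56.4 at the median and 95.6 at the highest, and O. rufipogon plants 58.6, 298 and 559 CPM. A single O. rufipogon plant, 230, lay inside the O. nivara range and the other 5 stood at 271 CPM or more. The log2 difference was -2.48 ± 0.48 (SE; edgeR adjusted p = 0.0448). Without plant 230 the adjusted p was 0.00739, and of the 12 fits that each left out 1 plant 2 kept the call. Rice carries related kaurene oxidase genes beside KO2, so its tags may be shared with a near copy.

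**Figure D1:**
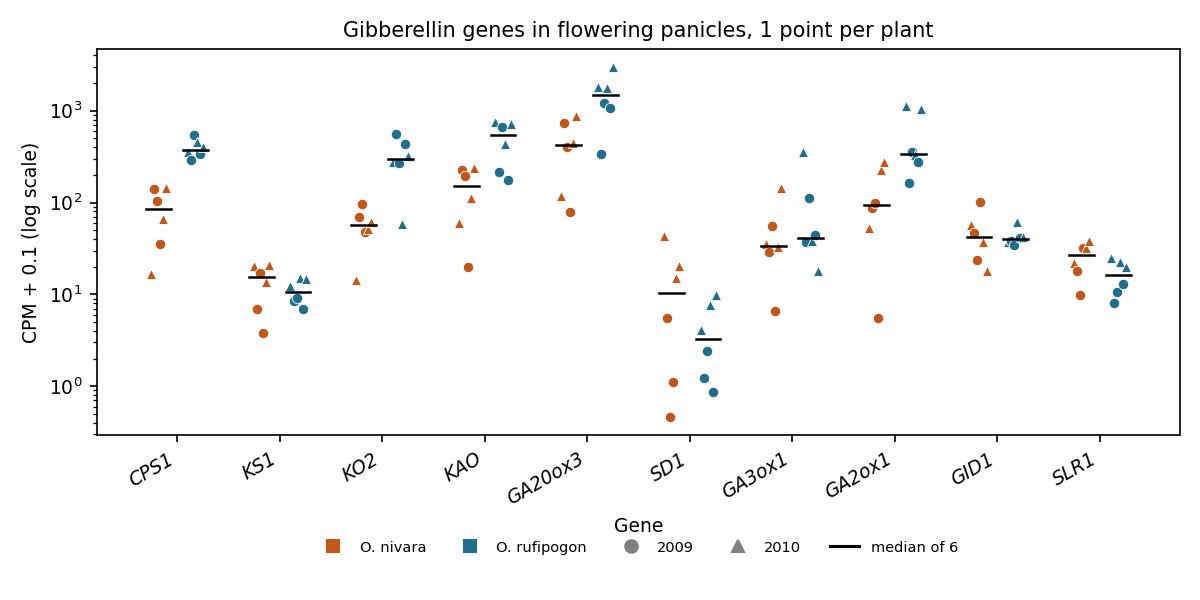
Levels of 10 gibberellin genes, from synthesis to signalling, in flowering panicles. Points are plants (circles 2009, triangles 2010) on a log axis of CPM + 0.1, and bars are medians of 6 plants; CPS1 separates the species, KO2 does so for all but O. rufipogon plant 230, and GID1 and KS1 have medians close together.

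Later steps had fitted differences of the same direction that did not pass the test. GA2ox1 (LOC_Os05g06670), which inactivates gibberellin, ranged from 5.40 to 276 CPM in O. nivara (median 93.2) and from 164 to 1136 CPM in O. rufipogon (median 339), with a log2 difference of -2.14 ± 0.63 (SE; edgeR adjusted p = 0.0928). GA20ox3 (LOC_Os07g07420), a GA 20-oxidase and the most abundant member, ranged from 78.7 to 882 CPM in O. nivara and from 342 to 3009 CPM in O. rufipogon (-1.68 ± 0.62, adjusted p = 0.155). Chosen after its values were seen, KAO (LOC_Os06g02019), which follows KO2, had medians of 153 and 548 CPM (-1.78 ± 0.59, adjusted p = 0.125). The pathway was not uniform. KS1 (LOC_Os04g52230), which acts between CPS1 and KO2, and the receptor GID1 (LOC_Os05g33730), also chosen after their values were seen, had log2 differences of 0.28 and 0.15. SD1 (LOC_Os01g66100), the GA 20-oxidase behind semidwarf rice, had medians of 10.2 CPM in O. nivara and 3.14 CPM in O. rufipogon (1.34, adjusted p = 0.208; likewise chosen after).

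KO2 was also measured in heading panicles, an earlier stage. There it averaged 41.9 ± 23.2 CPM (SD, n = 6) in O. nivara and 86.6 ± 58.6 CPM in O. rufipogon, against 56.6 ± 26.9 and 319 ± 169 CPM in flowering panicles. The difference between those species differences was -1.73 for KO2, with an unadjusted p of 0.0129 and an adjusted p of 1 in edgeR's model of the 36 libraries, so it did not pass the test.

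Among tapetum and pollen wall genes, the regulator TIP2 was lower in O. nivara. Of 28 listed loci 26 were in the table and 11 passed the filter on low counts; 1 was called lower, none was called higher, and the median log2 difference was -1.02 (-0.58 in 2009 and -2.13 in 2010). The called member was TIP2 (LOC_Os01g18870), a bHLH factor that directs tapetum differentiation. It was scarce: O. nivara plants held 0 CPM at the lowest, 0.959 at the median and 4.49 at the highest, and O. rufipogon plants 3.31, 8.51 and 20.5 CPM. O. nivara plant 80 alone reached into the O. rufipogon range. The log2 difference was -2.65 ± 0.47 (SE; edgeR adjusted p = 0.0270), and 5 of the 12 fits without 1 plant kept the call. TIP2 was not called in edgeR's model of the 36 libraries (adjusted p = 0.101) or by edgeR without the year term (adjusted p = 0.140). In heading panicles it averaged 41.0 ± 60.1 CPM (SD, n = 6) in O. nivara and 21.4 ± 16.8 CPM in O. rufipogon, with a log2 difference of 0.05. In the RNA-seq of 1 plant of each species TIP2 was at 0.0496 and 0.121 RPKM, too low to bear on the direction.

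TDR (LOC_Os02g02820), the bHLH partner needed for tapetum degeneration, ran from 0 to 27.3 CPM in O. nivara (median 3.81) and from 4.64 to 196 CPM in O. rufipogon (median 40.7), and its log2 difference of -3.07 ± 0.75 had an adjusted p of 0.0663. UDT1 (LOC_Os07g36460), an early tapetum bHLH gene, had medians of 1.21 and 5.37 CPM (-1.86 ± 0.55, adjusted p = 0.0927). RTS (LOC_Os01g70440), an anther gene required for fertility and the most abundant member, had medians of 30.8 and 516 CPM (-4.47 ± 1.35, adjusted p = 0.0986). The 5 O. rufipogon plants other than 230 held at least 183 CPM of RTS and plant 230 held 6.70 CPM, while O. nivara plant 52 held 270 CPM and its 5 companions 54.4 CPM or less. The ranges of the species overlapped for this gene, through plants 52 and 230.

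The late pollen list of 9 genes holds anther sugar genes, MST8 and INV4, beside pollen genes such as RUPO. Its called member was an anther sugar gene. MST8 (LOC_Os01g38670), a monosaccharide transporter that loads sugar into the anther, was called lower in O. nivara. Its level was 0 CPM at the lowest, 1.52 at the median and 6.45 at the highest in O. nivara; O. rufipogon plants 43, 47, 50, 95 and 199 held between 30.5 and 128 CPM and plant 230 held 0. The log2 difference was -5.43 ± 1.12 (SE; edgeR adjusted p = 0.0464). Leaving out plant 230 brought the adjusted p to 0.00536, and 2 of the 12 fits without 1 plant kept the call. INV4 (LOC_Os04g33720), the anther cell wall invertase that supplies the hexoses, split the plants likewise, with 1.26 CPM in O. rufipogon plant 230 and 84.2 to 581 CPM in the 5 others, against 0 to 39.9 CPM in O. nivara (-3.76 ± 1.12, adjusted p = 0.0956). In RNA-seq, MST8 stood at 3.32 RPKM in O. nivara plant 40 and 104 RPKM in O. rufipogon plant 47, and INV4 at 12.9 and 160 RPKM.

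**Figure D2:**
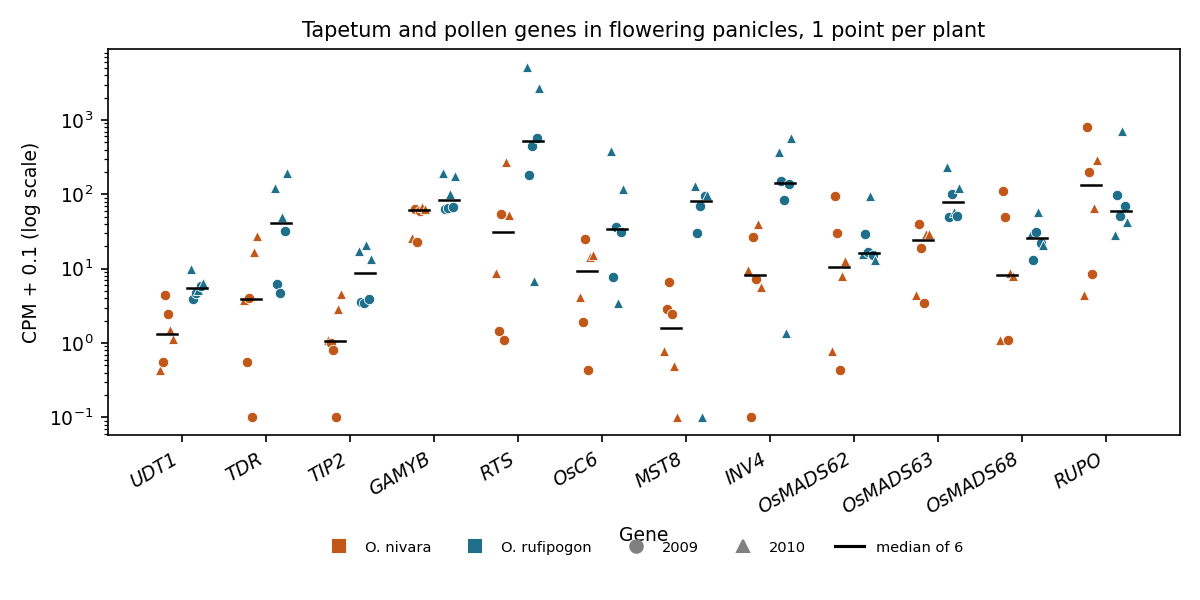
Levels of 12 tapetum and pollen genes in flowering panicles. The log axis gives CPM + 0.1, each point is a plant, circles are 2009 and triangles 2010, and bars are medians of 6 plants; MST8 is at 6.45 CPM or less in O. nivara and at 30.5 CPM or more in 5 O. rufipogon plants, while RUPO, OsMADS62 and OsMADS68 overlap widely.

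The 9 genes of the late pollen list had a median log2 difference of -0.75 (-0.09 in 2009 and -1.88 in 2010). Of them 7 were fitted lower, against 8526 of the 17395 genes tested. OsMADS63 (LOC_Os06g11970), a MIKC*-type MADS gene of maturing pollen, did not overlap, at 3.38 to 40.1 CPM in O. nivara and 49.2 to 235 CPM in O. rufipogon (-2.24 ± 0.61, adjusted p = 0.0815). RUPO (LOC_Os06g03610), a receptor-like kinase of the pollen tube, ran from 4.36 to 804 CPM in O. nivara and from 28.1 to 706 CPM in O. rufipogon (log2 difference 0.49, adjusted p = 0.864). O. nivara plants 34 and 197 were lowest for RUPO and for OsMADS63. The tapetum list summed to between 168 and 636 CPM in O. nivara and between 338 and 6333 CPM in O. rufipogon, with medians of 290 and 870 CPM, so the gibberellin differences above came with a lower median of tapetum transcripts, and the part of anther content in them was not tested. Without plants 34 and 197, KO2 had a log2 difference of -2.16 (edgeR adjusted p = 0.110), MST8 of -5.22 (adjusted p = 0.140) and TIP2 of -2.19 (adjusted p = 0.0483). Those plants were chosen after seeing the data, and the fit holds fewer plants, so it is no test of anther content.

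COMT1, a lignin gene, rose more in O. nivara than any other listed gene, and the listed wall genes were fitted in the same direction. Of 8 listed loci, 8 were tested, 1 was called higher and none lower, 8 were fitted higher, and the median log2 difference was 1.85. Over all genes tested, 8869 of 17395 were fitted higher. COMT1 (LOC_Os08g06100) encodes the caffeic acid O-methyltransferase of monolignol synthesis. In 2009 it stood in O. nivara at 96.7 CPM (plant 25), 125 CPM (plant 34) and 235 CPM (plant 40), and in O. rufipogon at 2.98 CPM (plant 43), 4.96 CPM (plant 50) and 11.4 CPM (plant 47). In 2010 it stood in O. nivara at 1098 CPM (plant 52), 1487 CPM (plant 197) and 2079 CPM (plant 80), and in O. rufipogon at 45.6 CPM (plant 95), 102 CPM (plant 199) and 121 CPM (plant 230). Each year separated the species completely, while the pooled ranges overlapped, every plant of 2010 lying above the 2009 plants of its species.

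The COMT1 log2 difference was 4.33 ± 0.48 (SE), with means of 853 ± 830 CPM in O. nivara and 48.0 ± 51.8 CPM in O. rufipogon (SD, n = 6) and an edgeR adjusted p of 0.00242. The 12 fits without 1 plant kept the call, with adjusted p from 0.00265 to 0.0100. Within a year the log2 difference was 4.57 in 2009 (adjusted p = 0.0738) and 4.08 in 2010 (adjusted p = 0.0955), and without the year term it was 4.13 (adjusted p = 0.126). RNA-seq of flowering panicles from 1 plant of each species gave 336 RPKM in plant 40 and 17.35 RPKM in plant 47. In heading panicles COMT1 averaged 1582 ± 2064 CPM in O. nivara and 734 ± 706 CPM in O. rufipogon, and in flag leaves 52.4 and 49.1 CPM. The flowering difference exceeded the heading difference by 3.17 on the log2 scale, which had an unadjusted p of 0.0166 and an adjusted p of 1.

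**Figure D3:**
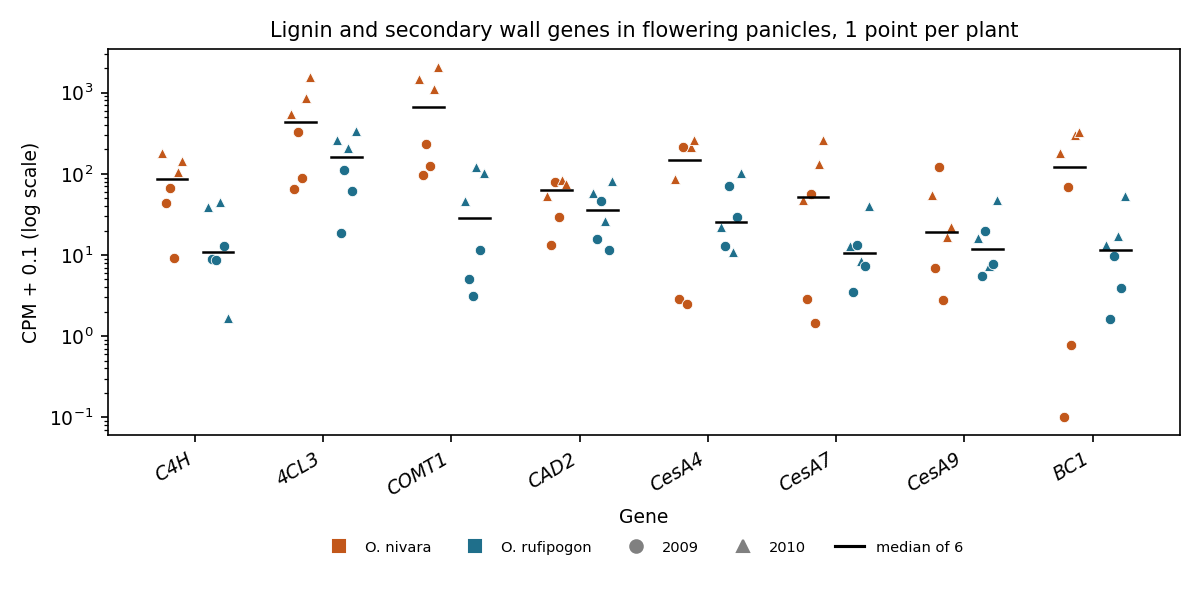
Levels of 8 lignin and secondary wall genes in flowering panicles. The log axis gives CPM + 0.1, each point is a plant, circles are 2009 and triangles 2010, and bars are medians of 6 plants; COMT1 lies apart between species within each year, whereas O. nivara plants 25 and 34 have little CesA7 and BC1.

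The other wall genes did not pass the test, and their differences were larger in 2010 than in 2009 except for CAD2. C4H (LOC_Os05g25640), cinnamate 4-hydroxylase, had medians of 86.7 and 10.9 CPM (2.15 ± 0.62, adjusted p = 0.0905). 4CL3 (LOC_Os02g08100), the 4-coumarate CoA ligase after it, had medians of 438 and 160 CPM (1.60 ± 0.53, adjusted p = 0.122). The remaining members are given whole and were chosen after their values were seen. CesA7 (LOC_Os10g32980), a secondary wall cellulose synthase subunit, differed by -0.06 in 2009 and by 2.79 in 2010 on mean log2 CPM, its partner CesA4 (LOC_Os01g54620) by -1.24 and 2.50, and the COBRA-like BC1 (LOC_Os03g30250) by -0.23 and 3.47. CesA9 (LOC_Os09g25490) and the cinnamyl alcohol dehydrogenase gene CAD2 (LOC_Os02g09490) had fitted log2 differences of 1.18 and 0.53. O. nivara plants 25 and 34 held 0 and 0.675 CPM of BC1, less than any O. rufipogon plant, and the 4 other O. nivara plants held 67.7 to 330 CPM, more than any O. rufipogon plant. The summed wall list ran from 232 to 4722 CPM in O. nivara and from 71.3 to 763 CPM in O. rufipogon.

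In the jasmonate list 16 of 17 loci were tested; 1 was called lower, none higher, and the median was 0.20. JAZ1 (LOC_Os04g55920), a repressor that jasmonate removes, was the called member, at 1.43 CPM at the lowest, 4.29 at the median and 6.37 at the highest in O. nivara and at 4.19, 10.8 and 21.1 CPM in O. rufipogon. O. rufipogon plant 47 alone overlapped the O. nivara plants. The log2 difference was -1.58 ± 0.33 (SE; edgeR adjusted p = 0.0464), and 3 of the 12 fits without 1 plant kept the call. RNA-seq gave 116 RPKM in plant 40 and 175 RPKM in plant 47, where DGE gave 1.43 and 4.19 CPM. RPKM are set per length and CPM are not, and why DGE counted so few JAZ1 tags was not tested. The call thus rests on a low tag level of a transcript that RNA-seq found abundant. JAZ8 (LOC_Os09g26780), another repressor, had medians of 42.6 and 12.9 CPM (2.05 ± 0.49, adjusted p = 0.0635), and AOS2 (LOC_Os03g12500), an allene oxide synthase of jasmonate synthesis, had medians of 7.98 and 32.9 CPM (-1.93 ± 0.51, adjusted p = 0.0764). JAZ7 (LOC_Os07g42370), the most abundant member, had a log2 difference of 0.75 (adjusted p = 0.314).

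Starch synthesis had 29 of 30 loci tested, none called and a median of -0.48 (0.07 in 2009 and -0.51 in 2010). SSIIb (LOC_Os02g51070), a leaf-type soluble starch synthase, separated the species without overlap at 25.6 to 37.9 CPM in O. nivara and 11.2 to 22.5 CPM in O. rufipogon, with a log2 difference of 1.13 ± 0.25 and an adjusted p of 0.0508. SSIIb was called in 3 of the 12 fits without 1 plant and in 5 of 12 other alternatives, DESeq2 (adjusted p = 0.000343) and limma-trend (adjusted p = 0.0426) among them, with adjusted p up to 0.425 in plants from India alone. PUL (LOC_Os04g08270), the debranching pullulanase, had medians of 10.0 and 30.4 CPM (-1.37 ± 0.36, adjusted p = 0.0747). BEIIb (LOC_Os02g32660), the amylose extender branching enzyme of endosperm, had medians of 70.3 and 374 CPM (-1.87 ± 0.52, adjusted p = 0.0842). Its O. nivara plants split, with 28.5 to 90.8 CPM in plants 34, 52, 80 and 197 and 238 and 337 CPM in plants 25 and 40; the lowest O. rufipogon plant held 289 CPM. DPE2 (LOC_Os07g46790), the most abundant member after averaging, ran from 90.2 to 1164 CPM in O. nivara and from 236 to 774 CPM in O. rufipogon.

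Floral organ identity genes gave no call among 20 tested, with a median of 0.24. OsMADS3 (LOC_Os01g10504), a class C gene of stamens, had medians of 40.8 and 99.8 CPM (-1.50 ± 0.34, adjusted p = 0.0601), and O. rufipogon plant 230 stood among the O. nivara plants. OsMADS5 (LOC_Os06g06750), a SEPALLATA-type gene, did not overlap, at 25.1 to 60.7 CPM in O. nivara and 3.72 to 20.2 CPM in O. rufipogon (1.42 ± 0.42, adjusted p = 0.0946). OsMADS14 (LOC_Os03g54160), an APETALA1-like gene, had medians of 163 and 66.8 CPM (1.50 ± 0.45, adjusted p = 0.0969). OsMADS15 (LOC_Os07g01820), its close relative and chosen after its values were seen, did not overlap either, at 343 to 520 CPM and 97.0 to 323 CPM (0.89 ± 0.32, adjusted p = 0.149). OsMADS16 (LOC_Os06g49840), the class B gene and most abundant member, had medians of 290 and 525 CPM (-0.84, adjusted p = 0.267).

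Photosynthesis genes gave no call among 37 tested. In O. nivara 32 were fitted higher, against 8869 of the 17395 genes tested, and the median was 0.65 (0.80 in 2009 and 0.36 in 2010). FNR2 (LOC_Os02g01340), a ferredoxin-NADP reductase, had medians of 361 and 72.0 CPM (1.71 ± 0.46, adjusted p = 0.0793). SBPASE (LOC_Os04g16680) of the Calvin cycle had medians of 190 and 71.5 CPM (1.82 ± 0.65, adjusted p = 0.142), and LHCB6 (LOC_Os04g38410), an antenna protein gene, medians of 190 and 95.0 CPM (1.22, adjusted p = 0.147). The summed photosynthesis list overlapped between the species, from 10980 CPM in plant 34 to 59616 CPM in plant 197 in O. nivara and from 10307 to 51935 CPM in O. rufipogon.

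**Figure D4:**
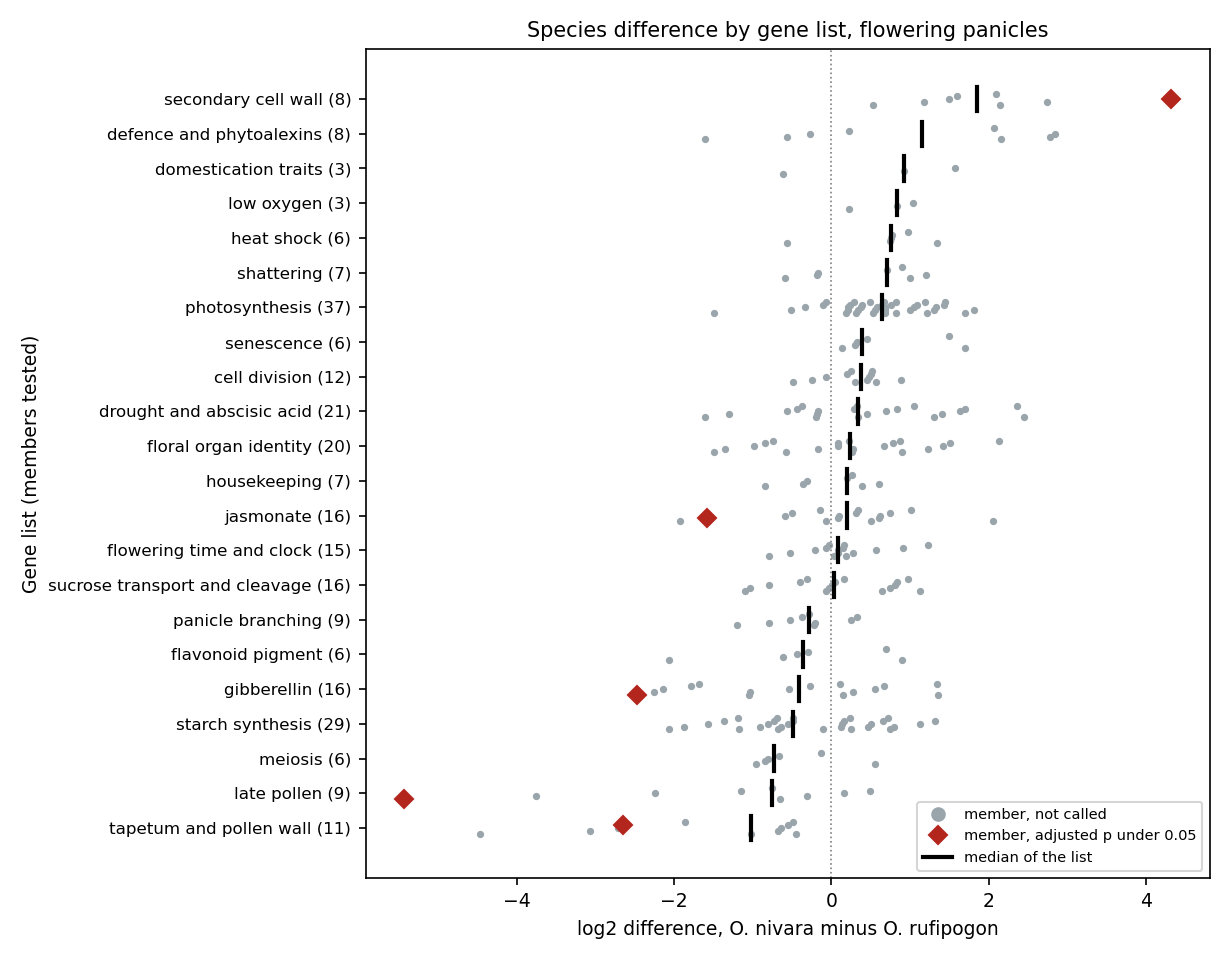
Fitted log2 difference of every tested member (points) and the median (bar) of the 22 gene lists with at least 3 tested members, on a linear log2 axis. The called members, drawn as diamonds, are TIP2, MST8, KO2 and JAZ1 on the lower side and COMT1 on the higher side; list medians run from -1.02 for the tapetum to 1.85 for the secondary wall.

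Of 271 list loci tested in all, 5 were called (1.85%), against 0.943% of all genes tested. The defence list, with 8 of 17 loci tested and none called, had a median of 1.15, which was 1.47 in 2009, 0.25 in 2010 and 0.16 in plants from India. Its CHT1 (LOC_Os06g51060), a chitinase gene, had medians of 20.9 and 4.20 CPM (2.85 ± 0.65, adjusted p = 0.0601), and CYP99A2 (LOC_Os04g10160), a P450 gene of the momilactone phytoalexin cluster, medians of 6.80 and 1.12 CPM (2.78 ± 0.81, adjusted p = 0.0902). The cluster holds a close paralog of CYP99A2, so its tags may be shared. NPR1 (LOC_Os01g09800), the salicylate coactivator, had a log2 difference of the other sign (-1.61, adjusted p = 0.0910).

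Shattering genes had a median of 0.71 with none of 7 called. qSH1 (LOC_Os01g62920), whose homeobox protein sets up the abscission zone, had medians of 35.9 and 16.1 CPM (adjusted p = 0.0994), SHAT1 (LOC_Os04g55560), an AP2 gene of the same zone, 71.4 and 30.7 CPM (1.21 ± 0.41, adjusted p = 0.128), and OsSh1 (LOC_Os03g44710), a YABBY gene, 178 and 108 CPM (0.90 ± 0.31, adjusted p = 0.134). The drought list had 21 loci tested, none called and a median of 0.34; DREB1A (LOC_Os09g35030), a cold-response factor, was at 10.1 to 27.6 CPM in O. nivara and 5.96 to 9.53 CPM in O. rufipogon in 2009, and at 1.68 CPM or less in both species in 2010 (1.63, adjusted p = 0.0919).

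The other lists gave no call. Median log2 differences were 0.93 for domestication trait genes, 0.84 for low oxygen, 0.76 for heat shock, 0.40 for senescence, 0.38 for cell division, 0.20 for housekeeping, 0.08 for flowering time and clock, 0.03 for sucrose transport, -0.29 for panicle branching, -0.37 for flavonoid pigment and -0.73 for meiosis. Seed storage had 1 tested member. In these lists the member with the smallest unadjusted p was NAP (LOC_Os03g21060), a senescence NAC factor, with medians of 23.3 and 9.94 CPM (1.70 ± 0.56, adjusted p = 0.120). Housekeeping genes showed how much single genes vary among plants: UBQ10 (LOC_Os02g06640) ran from 4.30 to 3655 CPM in O. nivara.

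Outside the lists, the largest called differences without overlap went to loci with no gene name in the files. LOC_Os11g32560 gave 1 tag in the 6 O. nivara libraries together and 1279 in the O. rufipogon libraries, where each plant held between 33.2 and 97.9 CPM. The ratio of tags per library total was 1225 in favour of O. rufipogon, with an exact interval of 219 to 48411 that covers counting error alone, and the edgeR adjusted p was 7.48e-06. RNA-seq gave 0 RPKM in plant 40 and 12.9 RPKM in plant 47. Heading panicles and flag leaves had the same contrast, with log2 differences of -8.50 and -9.41.

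LOC_Os07g39060 gave 5 tags in O. nivara and 520 in O. rufipogon, at 9.30 to 47.3 CPM (-6.53 ± 0.73, adjusted p = 0.00242). Here the assays parted, since RNA-seq gave 0 RPKM in plant 40 and 0.0930 RPKM in plant 47, a plant with 47.3 CPM in DGE. On the higher side, LOC_Os07g36700 held 11.1 to 264 CPM in O. nivara and 0.224 to 3.81 CPM in O. rufipogon (5.54 ± 0.95, adjusted p = 0.0270), and 8 of the 12 fits without 1 plant kept the call. LOC_Os10g42020 held 17.6 to 1213 CPM and 0.672 to 17.2 CPM (4.72 ± 0.99, adjusted p = 0.0464); without O. nivara plant 34, which held the 1213 CPM, its log2 difference was 3.27 (adjusted p = 0.0886), and 3 of the 12 fits without 1 plant kept the call. RNA-seq of the latter gave 21.6 RPKM in plant 40 and 33.3 RPKM in plant 47, the opposite order.

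Heading panicles and flag leaves are no independent repeat of the species difference, since 7 of the 12 flowering plants also gave a heading library and 8 a flag leaf library. In heading panicles 53 of the 58 higher and 100 of the 106 lower genes had the same sign, as did 67.3% of all genes tested, and their median log2 differences there were 0.61 and -1.38. The heading species difference was called in the same direction for 4 and 25 of them, against 0.12% and 0.335% of all genes called higher and lower there. In flag leaves 44 and 71 had the same sign, as did 57.0% of all genes tested, and 6 and 22 were called, against 0.425% and 1.02% of all genes. Between flowering and heading panicles, edgeR called no change of the species difference among 20018 genes (0%), while 933 genes (4.66%) had an unadjusted p under 0.05 and DESeq2 called 9. Against flag leaves edgeR called 4 genes (0.02%), and with the plant number as a block, since these libraries share plants, it called 0 (1658 at an unadjusted p under 0.05). Of the 4, LOC_Os06g35524 was itself called in flowering panicles, at 10.0 to 35.9 CPM in O. nivara and 24.9 to 396 CPM in O. rufipogon (-3.41, adjusted p = 0.0270), against flag leaf means of 50.5 ± 31.2 and 44.2 ± 26.8 CPM (SD, n = 6).

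RNA-seq was made from flowering panicles of O. nivara plant 40 and O. rufipogon plant 47, which are also among the DGE plants, with 1 library a species and so no test. Of 161 called genes with unequal RPKM in these plants, 146 (90.7%) differed in the direction of the DGE call. Of the 17176 genes tested with unequal RPKM, 10590 (61.7%) had the sign of their fitted DGE difference. LOC_Os01g31760, LOC_Os11g46040 and LOC_Os04g19360, all called lower, had 0 RPKM in both plants and were left out of these shares. The shares were 53 of 58 for higher genes and 93 of 103 for lower genes. Across the called genes the RNA-seq and DGE differences of the same pair of plants had a Pearson r of 0.763. That value joins 2 groups chosen for opposite DGE signs, by calls in which plants 40 and 47 took part. Within the higher genes r was 0.605, within the lower genes 0.336, and over all genes tested 0.559. Each r is a description over genes that are not independent replicates.

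**Figure D5:**
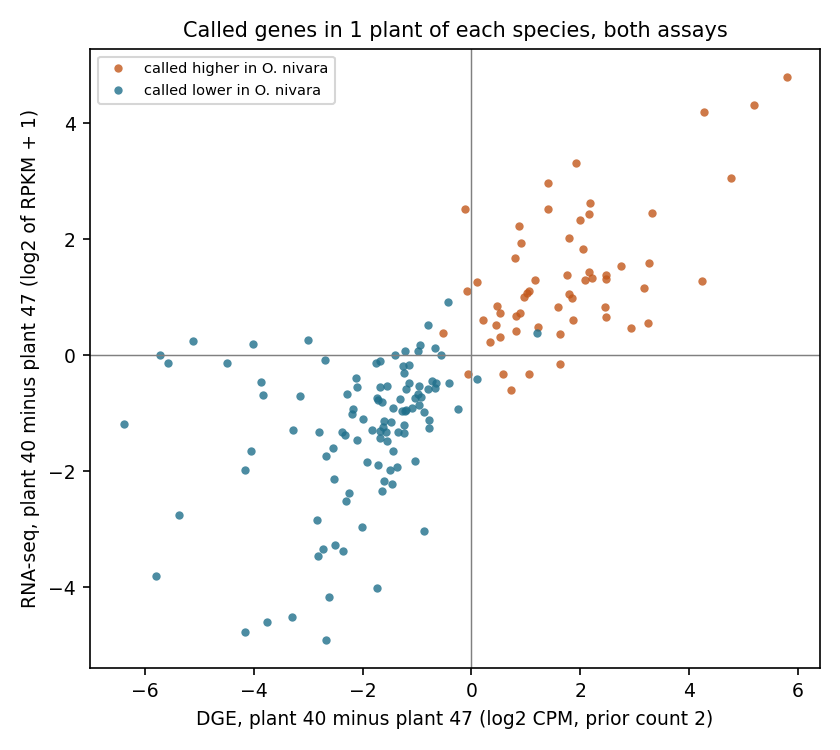
Difference between O. nivara plant 40 and O. rufipogon plant 47 for the 164 called genes, in DGE (log2 CPM, horizontal axis) and in RNA-seq (log2 of RPKM + 1, vertical axis). Each point is a gene, coloured by the direction of its call over 12 plants. Genes with equal RPKM in both plants lie at 0 on the vertical axis and are not in the share of 161 genes. Most points share a sign on both axes, and some points of the lower group, LOC_Os07g39060 among them, lie far left but near 0 on the vertical axis, where RNA-seq of these plants did not show the DGE difference.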

How the data were processed

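Tags were mapped with BWA and edgeR 3.6.8 was used, per the submitters' processing notes; which reference, build and mismatch limit were used is not given in the sources used here, and the authors deposited raw tag counts for 20134 loci and RPKM values for 37497 loci; how the RPKM were normalised beyond their name is not stated, and the deposited TPM table was not used. Tags differing from the mapping reference by species could be counted unequally, which was not tested. Counts were fitted with edgeR 4.0.16 in R 4.3.3 (TMM, filterByExpr on species, species plus year, quasi-likelihood F test, Benjamini-Hochberg over all genes tested), tested first on simulated data. CPM use TMM factors over the 36 DGE libraries. SE is the log2 difference divided by the square root of F. RPKM were compared as log2(RPKM + 1), which understates low genes. The labels name the plants of a species as biological replicates, and no libraries of a species agreed within sampling noise. DESeq2 1.42.0 and limma 3.58.1 gave alternatives. The members and gene lists were chosen with earlier results of these data known, so no p is given for a list or its summed level, although an exact test of the sums had been planned. Named genes are, per list, called members, the 3 smallest p and the highest mean CPM, and beyond the lists the 2 largest called differences without overlap in each direction. Tag intervals cover counting error alone.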

Additional observations from a re-analysis of the deposited data

Results flagged for a closer look

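Single plants stood far from the other 5 of their species for 25 of the 161 gene and species groups examined. The rule was Dixon's ratio on CPM, not on log2 CPM, at its 95% level for 6 values. That level gives about 1 in 20 by chance only for normally distributed values, so the count of flags cannot be set against it. Every flagged plant was on the high side. O. nivara plant 34 was high for the sucrose transporter gene SUT1, LOC_Os03g07480 (808 CPM), the chlorophyll breakdown gene SGR, LOC_Os09g36200 (61.8 CPM), JAZ8 (202 CPM) and LOC_Os10g42020 (1213 CPM). O. nivara plant 40 was high for AOS2 (30.1 CPM), the drought-list gene ASR5, LOC_Os11g06720 (1963 CPM), the fermentation gene ADH2, LOC_Os11g10510 (27.2 CPM), NPR1 (31.5 CPM) and LOC_Os07g39060 (1.43 CPM). The last of these had 5 tags over all O. nivara plants, so its flag rests on very few counts. O. nivara plant 25 was high for RUPO (804 CPM), the sugar carrier gene SWEET5, LOC_Os05g51090 (2775 CPM) and the branching gene MOC1, LOC_Os06g40780 (9.58 CPM). Plant 52 was high for RTS (270 CPM), plant 80 for chalcone isomerase CHI, LOC_Os03g60509 (33.5 CPM) and plant 197 for SBPASE (1202 CPM).

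In O. rufipogon, plant 230 was high for RUPO (706 CPM), SUT2, LOC_Os12g44380 (62.4 CPM), the Rubisco small subunit RBCS3, LOC_Os12g19381 (9730 CPM), CHT1 (14.2 CPM) and the clock gene LHY, LOC_Os08g06110 (553 CPM); RBCS3 has near-identical copies with which its tags may be shared. Plant 47 was high for SUT1 (449 CPM) and qSH1 (39.2 CPM), plant 50 for the meiotic cohesin REC8, LOC_Os05g50410 (19.8 CPM) and NPR1 (124 CPM), and plant 43 for CYP99A2 (9.61 CPM). Plant 230, low for RTS, INV4, MST8 and KO2 in the results above, was the plant whose removal raised the count of called genes most.

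The species difference itself differed between flowering panicles and flag leaves for 4 genes, by edgeR's interaction test without a term for plant, and for 0 genes with the plant number as a block (1658 at an unadjusted p under 0.05); 8 plants gave both tissues. The flowering difference minus the leaf difference was -2.08 on the log2 scale for LOC_Os04g42500, 2.66 for LOC_Os02g17304, 4.44 for LOC_Os02g01700 and -3.69 for LOC_Os06g35524. LOC_Os02g17304 and LOC_Os02g01700 were not called in flowering panicles, where their log2 differences were 0.40 and 0.13. In flag leaves theirs were -2.25 and -4.31, so the contrast of these genes lay in the leaf. LOC_Os04g42500 was not called in flowering panicles either (-1.35), and its leaf difference was 0.73.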

How the results depend on the processing

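The count of 164 called genes became 1801 with DESeq2, 98 with library totals alone, 44 without the year term, 450 with the 36 libraries in 1 model, 13 in 2009, 9 in 2010, 2 in plants from India and 43 without O. nivara plants 34 and 197, a choice made after seeing the data. Leaving out 1 plant at a time gave 21 to 876. It was 240 with limma-trend, 180 with RLE factors, and 237 with no filter or with the filter on the design matrix (added after seeing the data). Among the 164 were 1 of the 13 genes of 2009, 2 of the 9 of 2010 and 1 of the 2 from India. So were 125 of the 450 in the model of 36 libraries and 33 of the 43 without plants 34 and 197. DESeq2 called all 164. The single-year, single-origin and left-out fits hold fewer plants; for other changes the cause was not tested. The 9 named genes that were called kept their direction under every alternative that could be fitted. COMT1, LOC_Os11g32560 and LOC_Os07g39060 kept their calls without any 1 plant; adjusted p over all alternatives ran from 5.62e-23 to 0.126 for COMT1, 2.21e-06 to 0.290 for TIP2, 2.50e-06 to 0.420 for MST8, 2.03e-05 to 0.387 for KO2 and 0.00107 to 0.415 for JAZ1. MST8 could not be fitted in 2010 because it failed the filter. The interaction counts were 0 with the plant number as a replicate block for heading panicles (9 by DESeq2) and 0 for flag leaves, where the unblocked count was 4. No paired analysis was possible for the species difference because no plant number is shared between species. The RNA-seq share was 91.3% with a minimum of 1 RPKM; a pseudocount cannot change it. Of 72 named genes not called, 32 were called with DESeq2, 3 with limma-trend, 4 with the 36 libraries in 1 model, 14 without O. rufipogon plant 230 and 10 without O. nivara plant 40. In single years 19 of 23 list medians differed from the pooled one by over 1.5 times or in sign. List medians of starch (0.07 in 2009), flavonoid (0.55 in 2010, 0.16 without plants 34 and 197), jasmonate (-0.16 in 2010), housekeeping (-0.41 in 2010), floral (-0.02 in India) and clock (-0.17 without plants 34 and 197) genes changed sign; sucrose transport and seed storage, with medians near 0, and clock and housekeeping also did so without some single plants. RLE or library totals moved the median of all genes by less than 0.1. The count minimum of 10 tags equals 3.96 CPM in the median library, and 6 libraries had to reach it, so scarcer genes were mostly not tested.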
